A study of Mus musculus with 4 samples.

Results

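Cluster 1 is a group of naive-like CD4 T cells from the mouse mesenteric lymph node, numbered by the authors' deposited clustering and led by Pdlim4. Its members were all cells that the authors kept after filtering and gave the number 1, which was 2751 of 16948 kept cells. The 4 groups were colonized Foxp3CNS1- with 842 cluster 1 cells, germ-free Foxp3CNS1- with 394, colonized Foxp3GFP with 826 and germ-free Foxp3GFP with 689. All animals were male and from germ-free stock, and no source used here states their age. Foxp3GFP mice carry a GFP reporter of Foxp3, on which the cells of both genotypes were sorted. Foxp3 is the transcription factor that defines regulatory T (Treg) cells. Foxp3CNS1- mice lack CNS1, an intronic Foxp3 enhancer used when Treg cells form outside the thymus. Colonized mice were examined 9 days after a transfer of SPF (specific-pathogen-free) fecal microbiota, and germ-free mice received none. Each group was 1 library from the pooled nodes of 3 mice, in which sorted GFP+ and GFP- cells were mixed in equal numbers, so effects of the library, of its batch and of the group cannot be told apart. The sort and the clustering can both set the size of a cluster, and sizes were not compared between groups. Foxp3 reads near the gene's end do not show whether CNS1 is deleted, so they do not check the genotype labels.

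Naive CD4 T cells have left the thymus and have not yet met their antigen. They move between blood and lymph nodes with the help of the chemokine receptor Ccr7, and leave nodes through S1pr1, which the transcription factor Klf2 maintains. They stay quiescent on signals from Il7r and from weak contacts of the T cell receptor with self peptides. Cells with stronger self contacts carry more Cd5, an inhibitor of receptor signalling. Type I interferons act on these cells as on most others, and induce a set of antiviral genes.

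The data are counts of unique molecular identifiers (UMIs), which stand for captured mRNA molecules. Cluster 1 had a median of 2978 UMIs per cell in colonized Foxp3CNS1-, 2682 in germ-free Foxp3CNS1-, 2959 in colonized Foxp3GFP and 2747 in germ-free Foxp3GFP. A level below is the UMIs of a gene set to the CPM scale, that is per total UMIs of the cells of that cluster and library, summed. Ratios carry an exact 95% interval that covers counting error only. With 1 library per group there is no replicate and no test, so "higher" and "lower" describe these libraries. A sum over cells does not show whether more cells express a gene or each cell expresses more.

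Of the cells, 63 in cluster 1 had a barcode that also occurs in another library. Cells with a UMI of the heat-shock genes Hspa1a or Hspa1b were 13.3% of cluster 1 in colonized Foxp3CNS1-, 0.254% in germ-free Foxp3CNS1-, 13.2% in colonized Foxp3GFP and 0% in germ-free Foxp3GFP. In the same order, cluster 2 had 9.98%, 0.140%, 10.4% and 0.124%, and all kept cells outside cluster 1 had 8.02%, 0.350%, 9.11% and 0.274%. This difference runs with colonization inside and outside cluster 1, and its part in the colonization results was not tested. The counts were taken again without the cluster 1 cells that held an Hspa1a or Hspa1b UMI, as given with those results. Mitochondrial transcripts also ran with colonization. Of 12 mitochondrially encoded genes measured, 12 were lower in colonized than in germ-free Foxp3CNS1- with a median log2 ratio of −0.27, and 11 in Foxp3GFP with a median of −0.28. Cluster 2 had medians of −0.23 in Foxp3CNS1- and −0.22 in Foxp3GFP, and all kept cells outside cluster 1 had −0.24 and −0.29.

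Promoter windows of 3 genes that led the higher side of the colonization comparison in cluster 1 are shown here as sequence context. Each is the stretch of 250 bases before the transcription start in RefSeq, on the gene's strand in build GRCm38.p6, at chr19:34583279-34583528 on the plus strand for Ifit3, chr4:156200819-156201068 on the minus strand for Isg15 and chr19:34640639-34640888 on the plus strand for Ifit1.
Ifit3: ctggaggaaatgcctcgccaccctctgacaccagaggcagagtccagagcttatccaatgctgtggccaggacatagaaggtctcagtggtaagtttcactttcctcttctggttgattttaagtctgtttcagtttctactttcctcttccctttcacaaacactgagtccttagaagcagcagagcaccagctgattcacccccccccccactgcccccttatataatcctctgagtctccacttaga
Isg15: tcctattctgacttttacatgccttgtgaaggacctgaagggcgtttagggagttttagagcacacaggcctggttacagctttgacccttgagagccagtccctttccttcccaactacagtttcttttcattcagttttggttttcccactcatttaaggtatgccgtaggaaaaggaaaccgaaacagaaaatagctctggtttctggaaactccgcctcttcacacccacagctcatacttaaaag
Ifit1: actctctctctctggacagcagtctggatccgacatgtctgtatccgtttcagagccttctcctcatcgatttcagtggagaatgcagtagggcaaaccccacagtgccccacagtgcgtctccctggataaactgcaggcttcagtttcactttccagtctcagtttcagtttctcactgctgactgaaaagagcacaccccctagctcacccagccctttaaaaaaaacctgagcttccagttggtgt

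The label was held up against the markers first. Pdlim4, an actin-associated PDZ and LIM domain protein (mm10 chr11:54054928-54069014, minus strand), had 111.7 CPM in cluster 1 of colonized Foxp3CNS1-, 125.9 in germ-free Foxp3CNS1-, 92.2 in colonized Foxp3GFP and 89.8 in germ-free Foxp3GFP. All kept cells outside cluster 1 had 13.5, 31.2, 17.4 and 27.7 CPM in the same order, so the 4 libraries did not overlap. The log2 ratio to those cells was 3.05, 2.01, 2.40 and 1.69. Pdlim4 UMIs were found in 24.7%, 24.1%, 21.1% and 20.3% of cluster 1 cells, against 3.51%, 5.64%, 4.34% and 5.44% of the other kept cells, so most cluster 1 cells had none at this depth. Cluster 1 cells had a median of 2855 UMIs over the 4 libraries, and the other kept cells 2509.

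Igfbp4, a binding protein of insulin-like growth factors, and Dapl1, a death-associated-protein-like gene, were higher in cluster 1 than in all other kept cells. Igfbp4 had 720.7, 621.3, 684.7 and 551.0 CPM in cluster 1, in the library order above, and 138.5, 190.3, 170.9 and 222 CPM in the other kept cells. Dapl1 had 351, 286, 311 and 360 CPM in cluster 1, and 64.3, 103, 83.6 and 143 CPM in the other kept cells. Both genes were higher in cluster 1 than in those cells in each library, with no overlap. Cluster 2 was close to cluster 1, with Igfbp4 at 613, 514, 589 and 506 CPM and Dapl1 at 333, 291, 289 and 339 CPM.

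A wider list of naive markers ran the same way, and it shares Igfbp4, Dapl1 and Lef1 with the given markers. Of 14 naive T cell markers, 13 were higher in cluster 1 than in the other kept cells in all 4 libraries, with a median log2 ratio of 0.77, while the median of all 8342 genes compared was −0.31. Of 14 Treg markers, all were lower in all 4 libraries (median −2.50), as were 10 of 10 proliferation genes (median −4.37), 8 of 8 follicular helper genes and 14 of 15 effector and memory genes (median −2.32). Over all 8342 genes, 500 were higher and 4742 lower in all 4 libraries, which is the background for these counts. Mki67, a protein of dividing cells, was at 0.388, 0, 0.396 and 0 CPM in cluster 1, and at 26.2, 13.9, 26.6 and 15.5 CPM in the other kept cells. Clusters were made from the same counts, so these values describe cluster 1 and test nothing. A gene was past the fold where it differed by 1.5 times or more in every library, and 51 genes (0.611%) were higher and 805 (9.65%) lower by this rule. With ratios centred on the median gene, 179 were higher and 458 lower. Beside Pdlim4, the leading higher genes were Auts2, Ggt5, Hotairm1, Dapl1, Igfbp4, Nme4, Vipr1 (a receptor of vasoactive intestinal peptide), Rapgef4 (a cAMP-activated exchange factor) and Tdrp.

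The cells carried the T cell marks of the sort, with Cd3e at 311, 279, 315 and 330 CPM and Cd4 at 120, 140, 144 and 125 CPM in the library order above, and at most 1 UMI of Cd8a in a library. Markers of other lineages were low. The summed level of 10 B cell and plasma cell markers was 52.5 to 79.9 CPM in cluster 1 over the 4 libraries, and 183 to 344 CPM in the other kept cells, with none of the 10 at 0 over the 4 libraries together. Most of it was Cd74, with 63.2, 38.0, 38.8 and 33.3 CPM. The B cell gene Ms4a1 had at most 2 UMIs in any library. The myeloid list, with 6 of its 10 genes in the table, summed to 62.5 to 84.7 CPM, with Csf3r at 0. Foxp3 UMIs were found in 2.49%, 4.06%, 3.63% and 6.82% of cluster 1 cells, in the library order above, against 23.1%, 17.5%, 25.4% and 17.9% of the other kept cells.

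**Figure D1:**
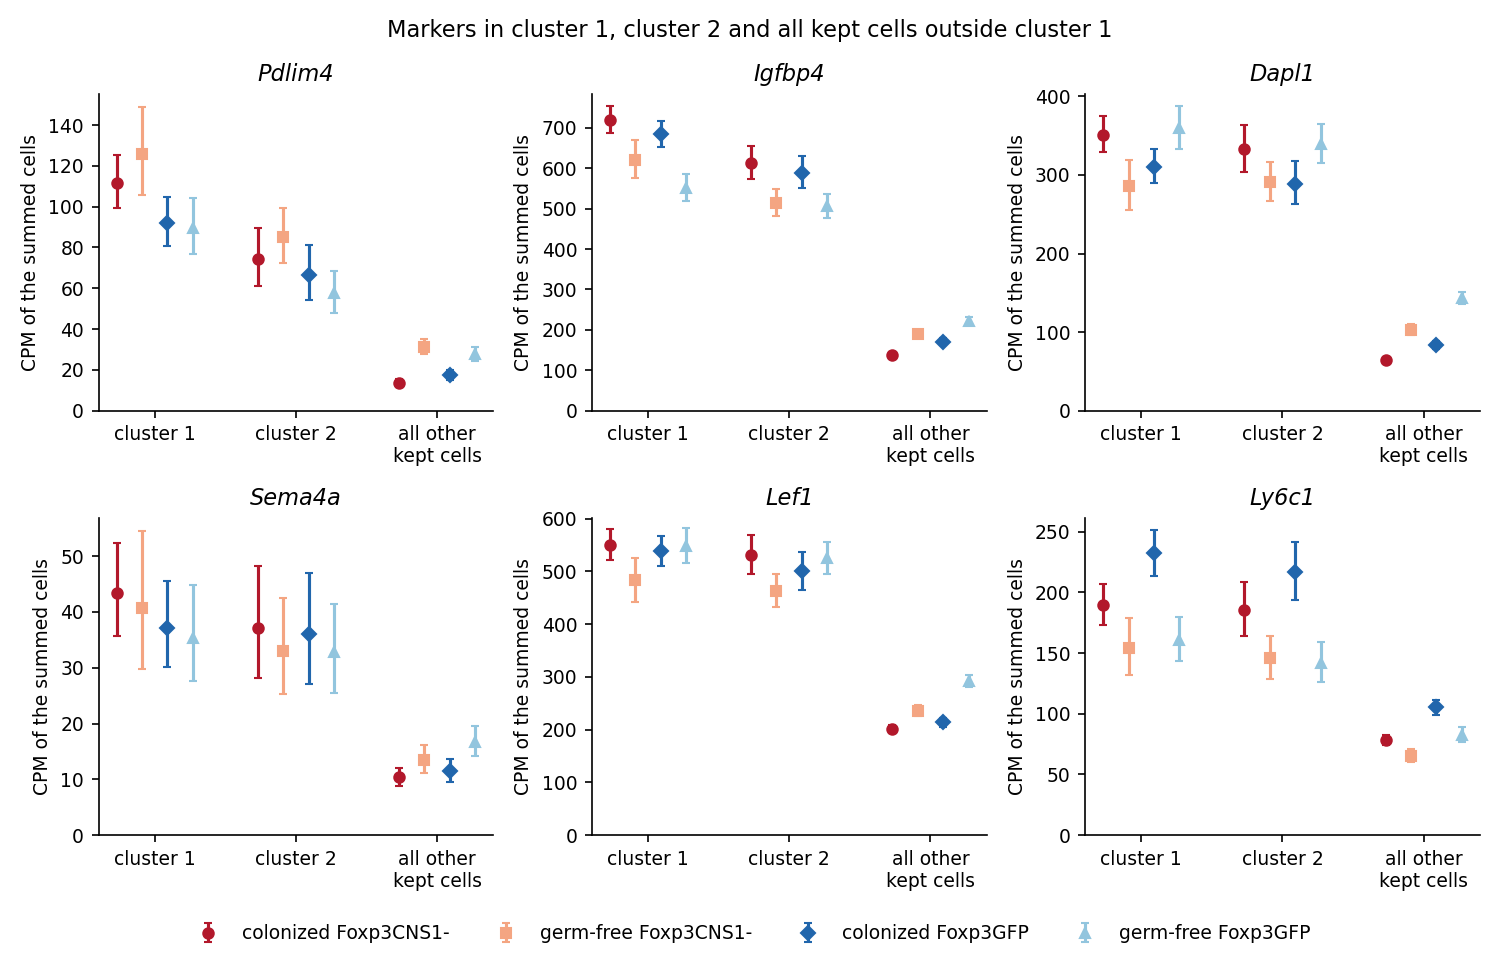
Levels in CPM of the given markers in cluster 1, in cluster 2 and in all kept cells outside cluster 1 (horizontal positions), with 1 point per library and exact intervals that cover counting error only. Pdlim4, Igfbp4 and Dapl1 lie above the other kept cells in every library, and cluster 2 lies between 57.4 and 85.0 CPM for Pdlim4, below cluster 1 in each library.

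Cluster 2, the other naive-like cluster, held 2591 cells. Of the 14 naive genes, 4 were higher and 5 lower in cluster 1 in all 4 libraries, with a median log2 ratio of −0.0018. With ratios centred on the median gene, 8 were higher and 1 lower, with a median of 0.11. Of the 6 given markers, 5 were higher in cluster 1 in all 4 libraries, with a median of 0.13, and Dapl1 was the exception at −0.02 in germ-free Foxp3CNS1-. Lef1, a transcription factor of naive T cells, had 550, 483, 538 and 548 CPM in cluster 1, and 531, 463, 500 and 525 CPM in cluster 2. Sema4a, a semaphorin, had 43.4, 40.8, 37.2 and 35.4 CPM in cluster 1, and 37.2, 33.0, 36.0 and 32.8 CPM in cluster 2, so these levels overlapped between the clusters. Genes tied to the strength of T cell receptor signalling were lower in cluster 1. Over all 4886 genes compared the median log2 ratio was −0.12, with 194 genes higher and 1475 lower in cluster 1 in all 4 libraries. Centring the ratios on the median gene made these counts 547 higher and 507 lower, so the balance of the counts depends on the scale.

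Past the fold in every library, 0 genes (0%) were higher in cluster 1 and 5 (0.102%) were lower, namely Cd200, Id3, Igf2r, Stk26 and the predicted gene A430093F15Rik. The intervals of Stk26 included 0 in 3 of the 4 libraries. Cd200, an inhibitory surface protein of activated lymphocytes (mm10 chr16:45382135-45409053, minus strand), had 20.6, 29, 21.8 and 29.8 CPM in cluster 1, and 39.9, 56.9, 58.1 and 65.5 CPM in cluster 2. Its log2 ratio was −0.96 (−1.52 to −0.40) in colonized Foxp3CNS1-, −0.97 (−1.59 to −0.39) in germ-free Foxp3CNS1-, −1.42 (−1.93 to −0.91) in colonized Foxp3GFP and −1.14 (−1.61 to −0.69) in germ-free Foxp3GFP. All 4 intervals lay below 0. Id3, an inhibitor of E proteins that receptor signals induce, had 72.1, 117.7, 80.3 and 133.4 CPM in cluster 1, and 141.5, 187.4, 132.8 and 255.9 CPM in cluster 2. It was lower in cluster 1 in each library, although its level in germ-free cluster 1 lay close to that of colonized cluster 2.

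A list of 12 genes that follow receptor signal strength in naive cells, fixed with earlier results of these data known, had 8 members measured. All 8 were lower in cluster 1 in all 4 libraries, with a median log2 ratio of −0.58 against −0.12 over all genes. When ratios were centred on the median gene, 6 were lower in all 4 libraries and the median was −0.46. Cd5 had 92.7, 119.6, 109.2 and 127.2 CPM in cluster 1, and 148.8, 196.1, 154.2 and 195.6 CPM in cluster 2, with no overlap. Izumo1r, the folate receptor family member also called FR4, had 177.3, 250.9, 226.3 and 285.2 CPM in cluster 1, and 308.3, 364.5, 416.5 and 327.6 CPM in cluster 2. The other members, Cd6, Tox, Itm2a, Cd200, Ptpn6 and Ubash3a, ran the same way. Of 12 immediate early and other receptor-induced genes measured, 3 were lower and 0 higher in all 4 libraries, with a median of −0.12. This was near the background, since 1475 of all 4886 genes were lower and 194 higher in all 4 libraries, also with a median of −0.12.

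Treg genes were also lower in cluster 1. Of 9 measured, 8 were lower in all 4 libraries, with a median log2 ratio of −0.89, and the exception was the interleukin-2 receptor gene Il2ra, at 0.19 in germ-free Foxp3GFP. Ikzf2, the transcription factor Helios of thymic Treg cells and of strongly signalled T cells (mm10 chr1:69531214-69687245, minus strand), had 14.7, 29.9, 30.9 and 63.6 CPM in cluster 1, and 53.1, 85.0, 69.4 and 90.7 CPM in cluster 2. Cells with a Foxp3 UMI moved with this difference, at 2.49%, 4.06%, 3.63% and 6.82% of cluster 1 and 4.25%, 7.42%, 9.06% and 7.20% of cluster 2. Without the cells that held a Foxp3 UMI, 6 of 7 Treg genes were still lower in all 4 libraries with a median of −0.69, and the 8 signal-strength genes had a median of −0.61.

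Pdlim4 was the leading gene in the other direction. Its log2 ratio of cluster 1 to cluster 2 was 0.59 (0.27 to 0.91), 0.57 (0.23 to 0.90), 0.47 (0.12 to 0.82) and 0.64 (0.30 to 0.99) in the library order above, so it passed the fold in 2 of the libraries. At a fold of 1.2 in every library, chosen after seeing the data, 4 genes (0.0819%) were higher, which were Pdlim4, Hotairm1, Tshz1 and Zbtb45, and 87 (1.78%) were lower. The intervals of the other 3 higher genes included 0 in every library. Il7r, the survival receptor of naive cells, had 129.9, 131.3, 146.4 and 170.3 CPM in cluster 1, and 97.7, 118.6, 110.1 and 126.3 CPM in cluster 2. It was among the 4 of 14 naive genes higher in cluster 1 in all 4 libraries, while 5 of the 14 were lower in all 4. Among the 87 lower genes was the actin-binding thymosin Tmsb4x, at 10582, 10482, 10019 and 10366 CPM in cluster 1 and 14745, 14793, 14383 and 14371 CPM in cluster 2.

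Ribosomal protein genes were slightly higher in cluster 1. They took 47.3%, 46.8%, 47.6% and 47.0% of its UMIs, and 42.6%, 42.5%, 42.3% and 42.6% of those in cluster 2. Of 86 measured, 80 were higher and 1 lower in cluster 1 in all 4 libraries, with a median log2 ratio of 0.14. Cluster 1 cells also held fewer genes at equal depth, with medians of 628, 630, 626 and 631 genes per cell thinned to 1500 UMIs, against 666.5, 668, 670 and 669 in cluster 2. CPM values are relative to a total that includes ribosomal UMIs. Ratios centred on the median gene left Pdlim4 past the fold in every library as higher and Cd200 as lower.

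**Figure D2:**
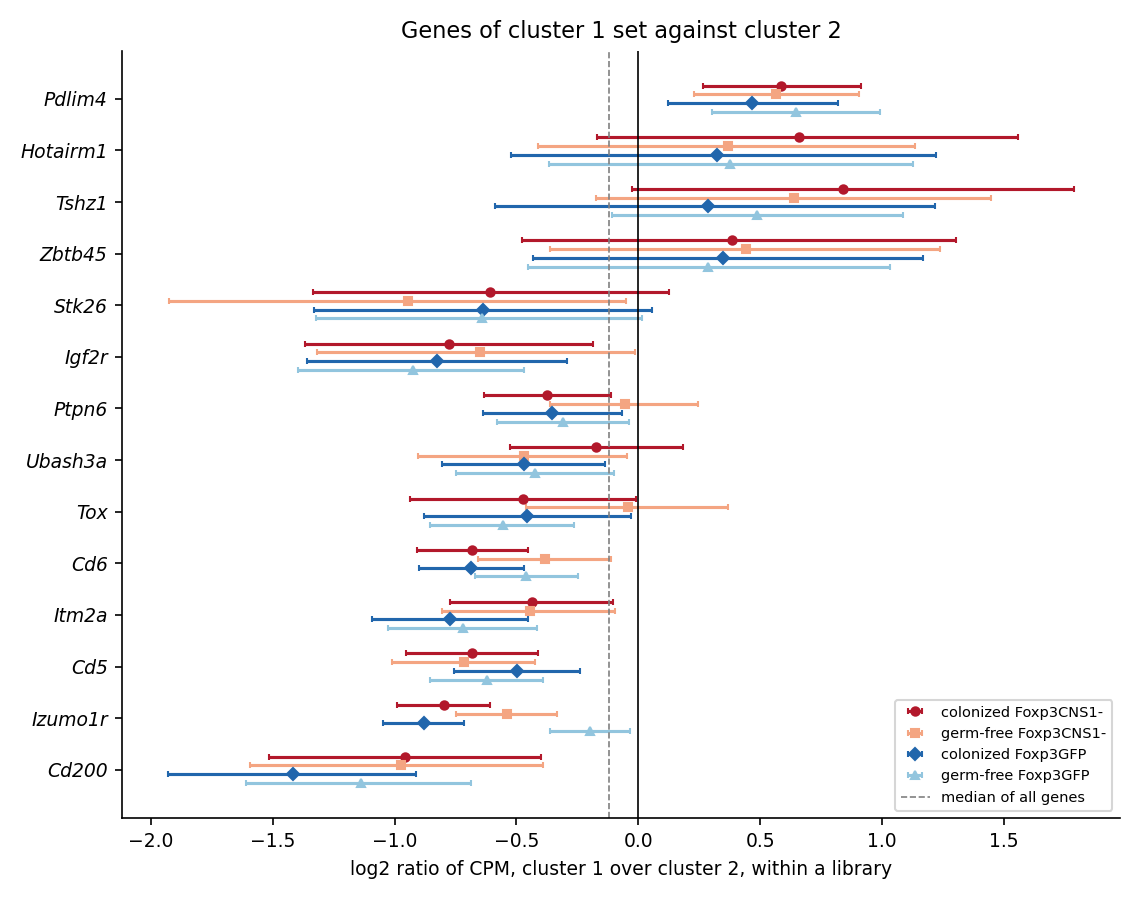
Log2 ratio of cluster 1 to cluster 2 within each library for the genes that led the comparison and those of the receptor signal-strength list, with 1 point per library and exact intervals that cover counting error only. The dashed line is the median of all genes, at −0.12. Intervals of Pdlim4 lie above 0 and those of Cd200 and Cd5 below 0 in all 4 libraries.

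Cluster 1 cells also differed among themselves. Cells were thinned to 1500 UMIs and the variance of each gene over cells was divided by its mean, a ratio near 1 for counting noise alone. Over 1079 genes with enough UMIs the median of the lowest value over the 4 libraries was 0.951. Malat1, a nuclear long RNA, had the highest at 7.11, and next was the interferon-induced Ifi27l2a at 1.84. Igfbp4 followed with 1.72, Crip1 with 1.69, Dapl1 with 1.66 and Ly6a with 1.57. Of the 6 given markers, Igfbp4, Dapl1 and Ly6c1 were among the first 15 genes, and Pdlim4 and Lef1 were not. Sema4a had too few UMIs in the thinned germ-free Foxp3CNS1- cells to enter the ranking. Id3 stood at 1.53, and Klf2, Bcl2 and Izumo1r were also among the first 15, of which 14 were shared with a ranking at 2000 UMIs per cell. Ly6c1 shares reads with its near-identical neighbour Ly6c2, and its value is uncertain for that reason.

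Colonization was compared with the germ-free state within each genotype, and antiviral genes led the higher side in cluster 1 of both. A gene entered with at least 100 UMIs over both libraries and was past the fold at 1.5 times. In Foxp3CNS1-, 82 of 3394 genes (2.42%) were higher and 92 (2.71%) lower in colonized cluster 1. In Foxp3GFP, 82 of 3963 genes (2.07%) were higher and 72 (1.82%) lower. The median log2 ratio of all genes was −0.022 in Foxp3CNS1- and −0.017 in Foxp3GFP. Of all genes at any size of ratio, 1576 were higher and 1818 lower in colonized Foxp3CNS1-, and 1859 were higher and 2104 lower in colonized Foxp3GFP, which is the background for the list counts given next. Without the cells that held an Hspa1a or Hspa1b UMI, 79 genes were higher in Foxp3CNS1- and 79 in Foxp3GFP.

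Ifit3, which binds foreign RNA complexes with other Ifit proteins (mm10 chr19:34583531-34588731, plus strand), had the largest ratio. It was at 121 CPM in colonized and 10.9 CPM in germ-free Foxp3CNS1-, a log2 ratio of 3.47 (2.65 to 4.44), and at 140 CPM in colonized and 11.3 CPM in germ-free Foxp3GFP, a log2 ratio of 3.63 (3.01 to 4.33). Few germ-free cells carried it, and the intervals are too narrow for that reason. In Foxp3CNS1- 144 colonized and 8 germ-free cells held a UMI, with 8.68% and 58.3% of the UMIs in the 3 highest cells. In Foxp3GFP 167 colonized and 15 germ-free cells held one, with 8.76% and 45.5% in the 3 highest cells. Ifit3 and Ifit3b are near-identical copies, so reads may have been split between them.

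Isg15, a ubiquitin-like protein attached to other proteins during the antiviral response, had 197 CPM in colonized and 32.6 CPM in germ-free Foxp3CNS1-, a log2 ratio of 2.60 (2.11 to 3.13). In Foxp3GFP it had 203 CPM in colonized and 38.0 CPM in germ-free cells, a log2 ratio of 2.42 (2.07 to 2.79). Its UMIs were in 27 germ-free Foxp3CNS1- cells, with 30.6% in the 3 highest cells. In germ-free Foxp3GFP they were in 58 cells, with 16.2% in the 3 highest, so the Isg15 intervals are also too narrow. Irf7, the factor that amplifies interferon production, had 131 and 33.5 CPM in colonized and germ-free Foxp3CNS1-, and 133 and 39.5 CPM in colonized and germ-free Foxp3GFP. Ly6a, the surface antigen Sca-1, had 445 and 146 CPM in colonized and germ-free Foxp3CNS1-, and 491 and 150 CPM in colonized and germ-free Foxp3GFP. Each colonized library was above both germ-free libraries for these genes.

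Socs3, a feedback inhibitor of cytokine signalling through Stat3 (mm10 chr11:117966079-117970047, minus strand), was among the leading genes outside the interferon list. It had 230 CPM in colonized and 79.7 CPM in germ-free Foxp3CNS1-, a log2 ratio of 1.53 (1.2 to 1.87). In Foxp3GFP it had 236 CPM in colonized and 56.9 CPM in germ-free cells, a log2 ratio of 2.05 (1.76 to 2.36). Bcl3, a nuclear member of the IκB family, ran the same way with 33.0 and 15.4 CPM in colonized and germ-free Foxp3CNS1-, and 39.6 and 10.8 CPM in colonized and germ-free Foxp3GFP. Prf1, the pore-forming protein perforin, had log2 ratios of 1.36 in Foxp3CNS1- and 1.35 in Foxp3GFP, while the cytotoxic gene Gzmb had at most 5 UMIs in any cluster 1 library.

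By list, all 30 interferon-stimulated genes measured in Foxp3CNS1- were higher in colonized cluster 1, 19 past the fold, with a median log2 ratio of 0.81. All 33 measured in Foxp3GFP were higher, 24 past the fold, with a median of 1.04. In cluster 2 the list had medians of 0.83 in both genotypes, so the same direction was seen outside cluster 1. Without the Hspa1a and Hspa1b cells, 29 of 30 in Foxp3CNS1- and 31 of 31 in Foxp3GFP were higher, with medians of 0.84 and 1.0. The GBP and IRG GTPases, which interferon gamma induces most, were higher for 6 of 6 genes in Foxp3CNS1- (median 0.51) and 8 of 9 in Foxp3GFP (median 0.67). Genes of MHC class I and peptide loading were higher for 13 of 14 in Foxp3CNS1- (median 0.26) and 14 of 14 in Foxp3GFP (median 0.31), with H2-Q4 as the exception at −0.30 in Foxp3CNS1-. H2-Q, Gbp and Ifi200-family genes include near-identical copies, and values of single members are uncertain.

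The list was also summed per cell. In cells thinned to 1500 UMIs, the median number of UMIs over 46 interferon-stimulated genes was 6 in colonized and 4 in germ-free Foxp3CNS1-, and 7 in colonized and 4 in germ-free Foxp3GFP. The 90th percentile was 17 in colonized and 8 in germ-free Foxp3CNS1-, and 18 in colonized and 8 in germ-free Foxp3GFP. At least 1 UMI of Isg15, Ifit1, Ifit3, Usp18, Irf7 or Rtp4, which were picked from the genes leading this comparison, was found in 43.0% (39.6 to 46.5) of colonized and 15.5% (12 to 19.5) of germ-free Foxp3CNS1- cluster 1 cells. In Foxp3GFP it was found in 45.1% (41.6 to 48.6) of colonized and 18.3% (15.5 to 21.5) of germ-free cells. These binomial intervals cover counting error only. The shares are a description, since no cell type that should lack these 6 genes gave a background share, and the part of free RNA was not tested. The variance over the mean of the per-cell sum was 8.13 in colonized and 4.55 in germ-free Foxp3CNS1-, and 8.94 in colonized and 2.79 in germ-free Foxp3GFP, so cells within the colonized libraries were also uneven.

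**Figure D3:**
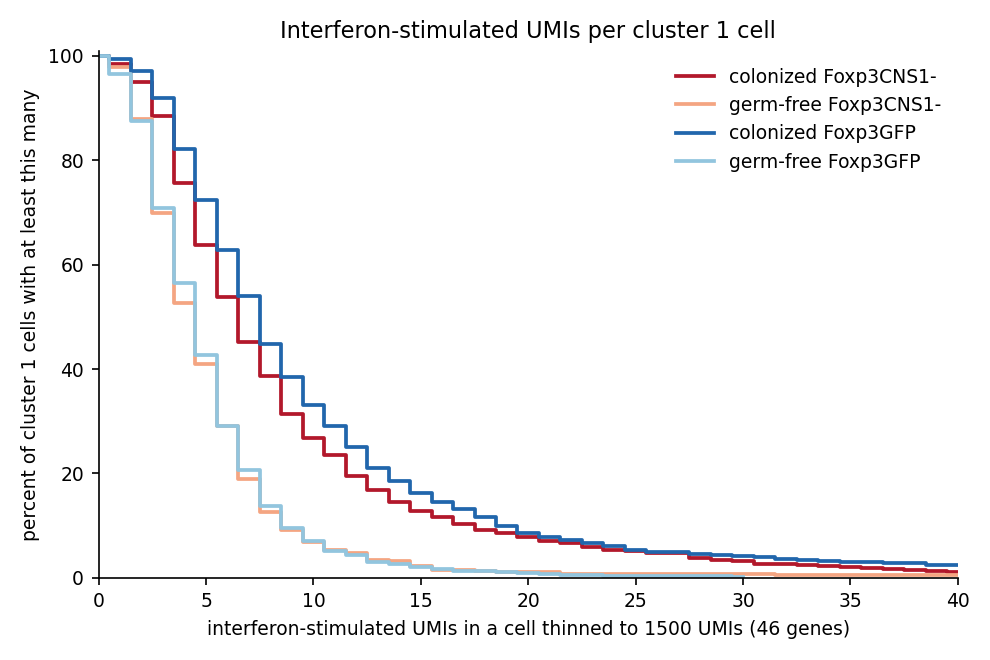
Percent of cluster 1 cells (vertical axis) with at least a given number of interferon-stimulated UMIs over 46 genes (horizontal axis), 1 line per library, cells thinned to 1500 UMIs. Both colonized lines lie to the right of both germ-free lines, with medians of 6 and 7 against 4 and 4.

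Of 3380 genes measured in both genotypes, 81 were higher in Foxp3CNS1- and 65 in Foxp3GFP, and 31 were shared, which is 38.3% of the Foxp3CNS1- and 47.7% of the Foxp3GFP genes. Of the 31, 17 belonged to the interferon list. The others included Socs3, Bcl3, Prf1, Dtx1, a Notch-pathway ubiquitin ligase, and Sgk1, a kinase of salt and growth-factor responses. The 31 also held Iigp1, an IRG GTPase, and Ifi206, Ifi213 and Ifi214 of the Ifi200 family. The interferon list does not hold every gene that interferons induce, so a gene outside it may still be one. On the lower side 91 genes in Foxp3CNS1- and 43 in Foxp3GFP shared 16, or 17.6% and 37.2%.

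Tox, Dusp2 and Id3 were among the genes lower in both genotypes. Tox, a nuclear factor of T cell development, had 34.9 CPM in colonized and 71.6 CPM in germ-free Foxp3CNS1-, and 42.3 CPM in colonized and 80.0 CPM in germ-free Foxp3GFP. Dusp2, a nuclear phosphatase of MAP kinases, had 53.1 CPM in colonized and 119.6 CPM in germ-free Foxp3CNS1-, and 64.1 CPM in colonized and 113.9 CPM in germ-free Foxp3GFP. Id3 had 72.1 CPM in colonized and 117.7 CPM in germ-free Foxp3CNS1-, and 80.3 CPM in colonized and 133.4 CPM in germ-free Foxp3GFP. Germ-free libraries of both genotypes were above both colonized ones for these 3 genes. The same order was seen for all 3 in cluster 2 and in the other kept cells. Tox had 80.6 and 127 CPM in colonized and germ-free Foxp3CNS1- of the other kept cells, and 83.4 and 149 CPM in Foxp3GFP. Rgcc, Smc4, Myc, Ski, Tcf3, Mxd4, Phpt1 and the survival gene Bcl2a1b were also lower in both. The list of immediate early and other receptor-induced genes was mixed, with 4 higher and 7 lower of 11 in Foxp3CNS1- (median −0.11, 1 past the fold higher and 2 lower) and 4 higher and 8 lower of 12 in Foxp3GFP (median −0.12, 2 past the fold lower).

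The receptor signal-strength list was lower for 6 of 7 genes in Foxp3CNS1- (median −0.37, 1 past the fold) and 8 of 8 in Foxp3GFP (median −0.18, 1 past the fold). Treg genes were lower for 5 of 5 in Foxp3CNS1- (median −0.50) and 7 of 7 in Foxp3GFP (median −0.54), and in cluster 2 their medians were −0.18 and 0.35. Cells with a Foxp3 UMI were 2.49% of colonized and 4.06% of germ-free Foxp3CNS1- cluster 1 cells, and 3.63% of colonized and 6.82% of germ-free Foxp3GFP cells. Without them the Treg genes were lower for 4 of 4 (median −0.41) and 6 of 6 (median −0.48). TGF-β receptors and Smads were lower for 4 of 5 genes in Foxp3CNS1- (median −0.48) and 6 of 6 in Foxp3GFP (median −0.41). The same list had medians of −0.23 in Foxp3CNS1- and −0.43 in Foxp3GFP in cluster 2, and of −0.50 and −0.31 in the other kept cells. Only Ski passed the fold in both genotypes.

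No naive marker passed the fold under colonization. The naive list had a median log2 ratio of 0.20 in Foxp3CNS1- and 0.078 in Foxp3GFP, with 0 of 14 genes past the fold in either. Pdlim4 itself had 111.7 CPM in colonized and 125.9 CPM in germ-free Foxp3CNS1-, and 92.2 CPM in colonized and 89.8 CPM in germ-free Foxp3GFP. Ribosomal protein genes were balanced, with 43 of 85 higher in each genotype.

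**Figure D4:**
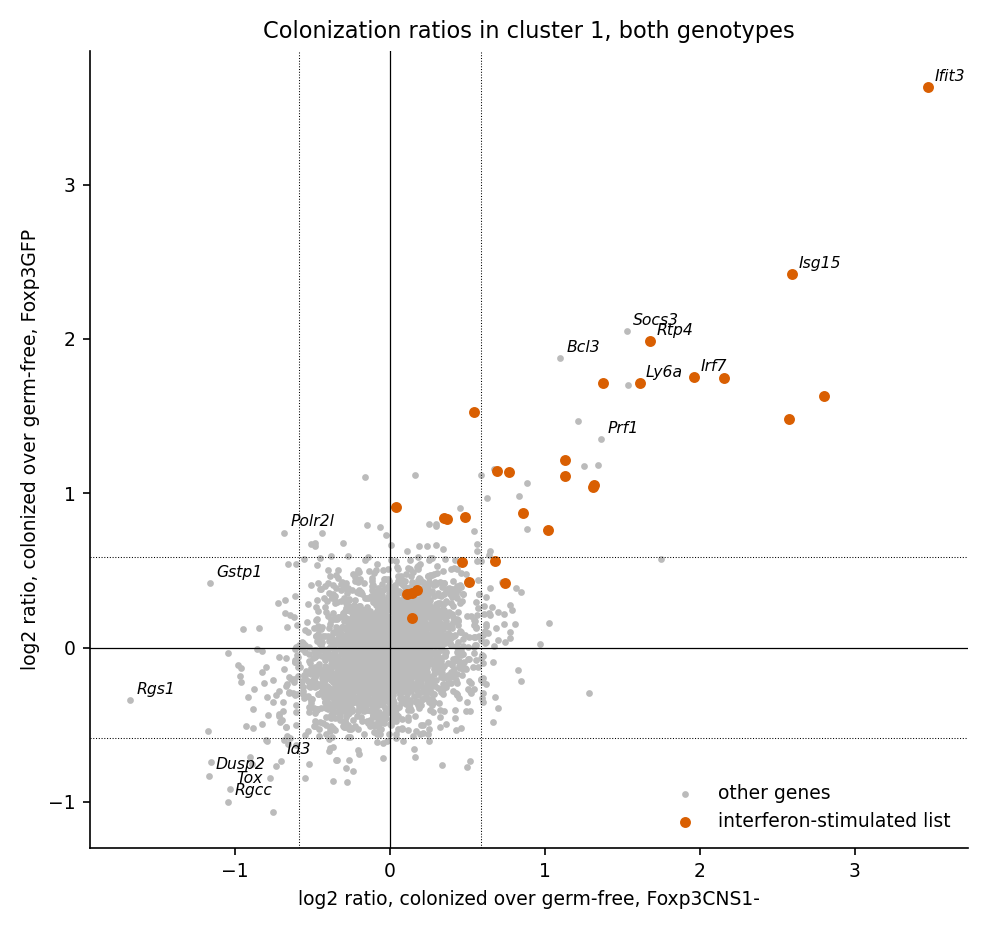
Log2 ratio of colonized to germ-free cluster 1 for every gene measured in both genotypes, with Foxp3CNS1- on the horizontal and Foxp3GFP on the vertical axis. Ifit3, Isg15 and Socs3 lie high on both axes, and Polr2l lies past the fold in opposite directions.

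Genotype was compared within each microbiota state, on the same 4 libraries as the colonization comparisons. In cluster 1 few genes differed, and the antigen-presentation gene H2-DMa led both comparisons. In colonized mice 34 of 4298 genes (0.791%) were higher and 58 (1.35%) lower in Foxp3CNS1-. In germ-free mice 37 of 2997 genes (1.23%) were higher and 50 (1.67%) lower. The median log2 ratio of all genes was 0.0055 in colonized and 0.0090 in germ-free mice. At any size of ratio, 2194 genes were higher and 2104 lower in Foxp3CNS1- of colonized mice, and 1558 were higher and 1439 lower in germ-free mice.

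H2-DMa encodes a chain of the chaperone that loads peptides on MHC class II (mm10 chr17:34119541-34139101, plus strand). It had 218 CPM in Foxp3CNS1- and 104 CPM in Foxp3GFP of colonized mice, a log2 ratio of 1.06 (0.85 to 1.28). In germ-free mice it had 241 CPM in Foxp3CNS1- and 92.3 CPM in Foxp3GFP, a log2 ratio of 1.38 (1.11 to 1.66). Both Foxp3CNS1- libraries were above both Foxp3GFP libraries. The UMIs were spread over 38.6% of colonized and 35.8% of germ-free Foxp3CNS1- cluster 1 cells, and over 24.7% of colonized and 20.3% of germ-free Foxp3GFP cells. Cluster 2 had the same direction, with log2 ratios of 0.92 in colonized and 1.24 in germ-free mice, and the other kept cells had 0.42 and 0.83.

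Ppp3cc, a catalytic subunit of calcineurin (mm10 chr14:70217865-70289471, minus strand), had 59.0 CPM in Foxp3CNS1- and 28.5 CPM in Foxp3GFP of colonized mice, a log2 ratio of 1.05 (0.64 to 1.47). In germ-free mice it had 63.4 CPM in Foxp3CNS1- and 35.9 CPM in Foxp3GFP, a log2 ratio of 0.82 (0.32 to 1.32). Glipr2 was also higher in Foxp3CNS1- in both states, with log2 ratios of 0.70 in colonized and 0.77 in germ-free mice. For Ppp3cc and Glipr2 too, neither genotype's libraries overlapped the other's. Cd74, the invariant chain, was past the fold in colonized mice only, at 63.2 CPM in Foxp3CNS1- and 38.8 CPM in Foxp3GFP. It is itself on the B cell marker list, and the part of other cells in its level was not tested.

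Ikzf2 was lower in Foxp3CNS1- in both states. It had 14.7 CPM in Foxp3CNS1- and 30.9 CPM in Foxp3GFP of colonized mice, a log2 ratio of −1.07 (−1.67 to −0.49). In germ-free mice it had 29.9 CPM in Foxp3CNS1- and 63.6 CPM in Foxp3GFP, a log2 ratio of −1.09 (−1.69 to −0.53). Counts were small, with 26 colonized and 23 germ-free Foxp3CNS1- cells and 43 colonized and 67 germ-free Foxp3GFP cells holding a UMI. The 3 highest cells held 36.8% of the UMIs in colonized and 30.3% in germ-free Foxp3CNS1-. In Foxp3GFP they held 25.6% in colonized and 10.5% in germ-free mice, so the Ikzf2 intervals are also too narrow. In cluster 2 the log2 ratio was −0.39 in colonized and −0.09 in germ-free mice, and in both clusters together it was −0.65 and −0.27. The other kept cells had 374 CPM in Foxp3CNS1- and 344 CPM in Foxp3GFP of colonized mice, and 390 and 414 CPM in germ-free mice. Ikzf2 was therefore higher in Foxp3CNS1- in the other kept cells of colonized mice. Without the cells with a Foxp3 UMI the germ-free ratio in cluster 1 was −0.85.

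Several genes depended on the state. Gstp1, a glutathione transferase, had 65.2 CPM in Foxp3CNS1- and 125 CPM in Foxp3GFP of colonized mice, a log2 ratio of −0.94. In germ-free mice it had 146 CPM in Foxp3CNS1- and 93.9 CPM in Foxp3GFP, a log2 ratio of 0.64. Gstp1 changed direction in the same way outside cluster 1. Its log2 ratio was −0.75 in colonized and 0.49 in germ-free mice in cluster 2, and −0.63 and 0.48 in the other kept cells. Its near-identical copy Gstp3 had 126 CPM in Foxp3CNS1- and 102 CPM in Foxp3GFP of colonized mice, and 132 CPM in Foxp3CNS1- and 82.6 CPM in Foxp3GFP of germ-free mice. Reads may have been split between the copies, so both values are uncertain. Ifit1 was lower in Foxp3CNS1- of germ-free mice, at 19.0 CPM against 43.6 CPM in Foxp3GFP, and 15 and 45 cells held its UMIs. The receptor-induced genes Cd69 and Jun were lower in germ-free Foxp3CNS1-, with log2 ratios of −0.78 and −0.72, but of the 11 receptor-induced genes measured there 4 were higher and 7 lower, with a median of −0.12.

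Interferon-stimulated genes were lower in Foxp3CNS1- for 32 of 36 genes in colonized mice, with a median log2 ratio of −0.18 and 0 genes past the fold. Without cells holding a B cell, plasma cell or myeloid marker UMI, 8 of 33 were higher, with a median of −0.08. In germ-free mice they were lower for 15 of 23 genes, with a median of −0.075 and 1 gene past the fold. Treg genes were lower for 4 of 6 in colonized (median −0.47) and 5 of 6 in germ-free mice (median −0.22), with 2 past the fold in each. Without cells holding a B cell, plasma cell or myeloid marker UMI, 3 of 4 Treg genes were higher in germ-free mice, with a median of 0.09. The naive list had medians of −0.064 in colonized and −0.14 in germ-free mice, with 0 genes past the fold.

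**Figure D5:**
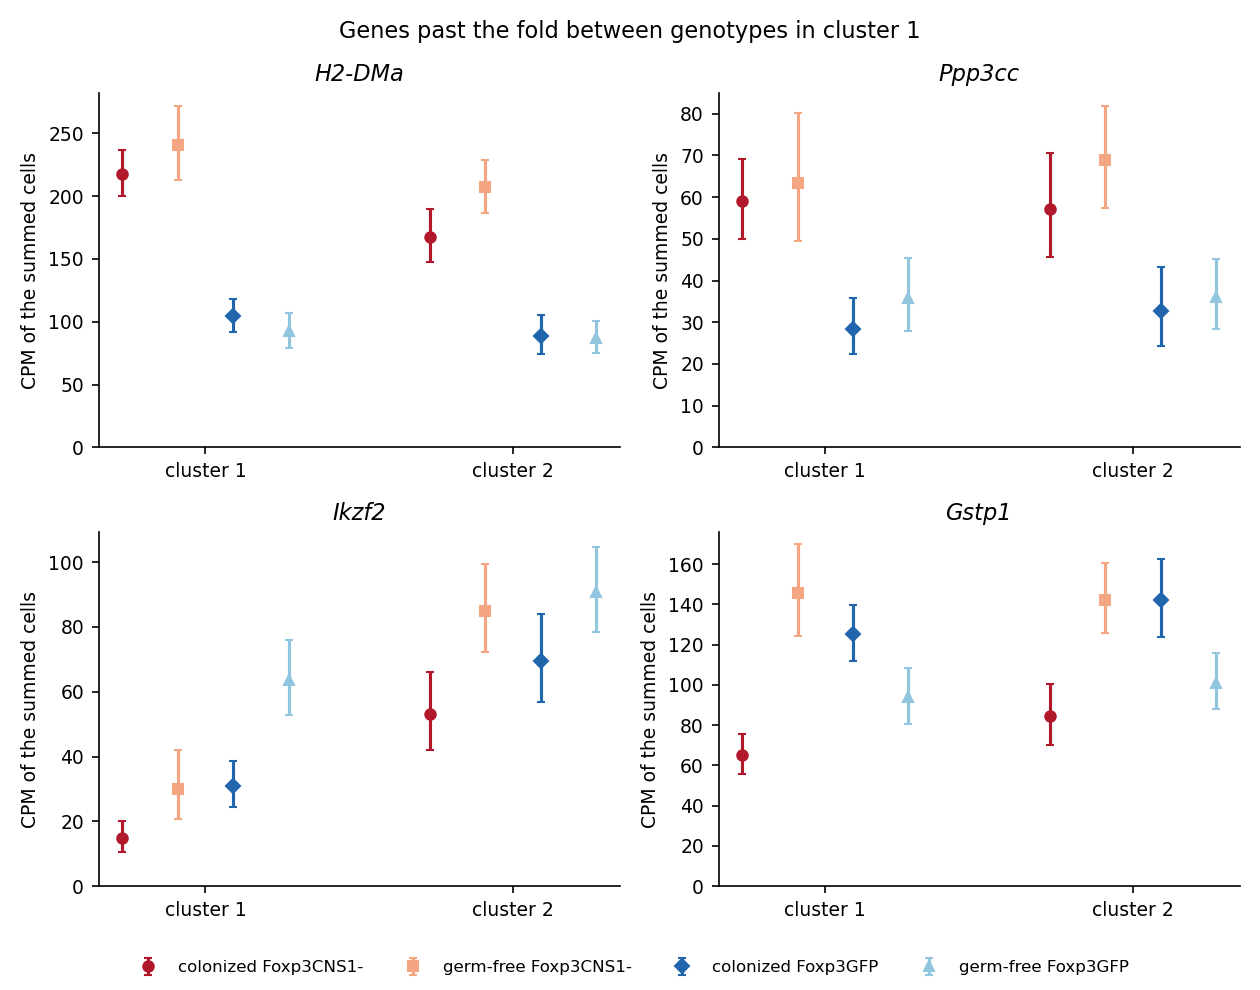
Levels in CPM in cluster 1 and cluster 2 (horizontal positions) of genes past the fold between genotypes in cluster 1, 1 point per library with exact intervals that cover counting error only. In cluster 1 H2-DMa and Ppp3cc lie higher in both Foxp3CNS1- libraries, Ikzf2 lies lower in Foxp3CNS1- within each microbiota state, and Gstp1 changes direction between the states.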

How the data were processed

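CD4 T cells sorted from mesenteric lymph nodes were profiled by 10x Genomics droplet sequencing of transcript 3′ ends (v3), per the labels' protocols. The UMI counts were deposited by the authors as whole numbers, after use of Cell Ranger, Scanpy 1.5.1 and build mm10, per the submitters' processing notes. No source used here states the cell and gene filters or a doublet removal, and doublets were not called. Cluster number, library and filter status came from the authors' deposited cell table, of which 3 columns of per-cell values were not used. Of 17478 cells in the count table, 227 had no row in the cell table and 303 were marked as removed, which left 16948.

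UMIs were summed per library and cell set, divided by their total and given as CPM (numpy 2.4.6, scipy 1.17.1, pandas 2.3.3). A ratio has an exact 95% interval (Clopper-Pearson on the split of UMIs), and a share of cells an exact binomial one. These cover counting error only, not differences between mice or libraries. No test was made, because each group is 1 library. The steps were checked on simulated data. Library comparisons took genes that reached 100 UMIs over both libraries, and comparisons within a library genes with at least 50 UMIs over both cell sets in every library. Cluster 1 held 2578187, 1104052, 2528019 and 1949178 UMIs in colonized Foxp3CNS1-, germ-free Foxp3CNS1-, colonized Foxp3GFP and germ-free Foxp3GFP.

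The members and gene lists were chosen with earlier results of these data known. The genes named are list members and, per comparison and direction, up to 10 genes past the fold whose interval bound nearest to a ratio of 1 was farthest from it. Comparisons of cluster 1 with other cells ranked genes by the smallest of the 4 ratios. The rule skips T cell receptor, immunoglobulin, ribosomal, mitochondrial, predicted and Y-linked genes, and Xist. Gene positions come from the GENCODE annotation of mm10 and promoter sequences from RefSeq. Alternatives changed the UMI minimum, the fold, the depth per cell, the weight per cell, the centring and the cells included.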

Additional observations from a re-analysis of the deposited data

Results flagged for a closer look

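Polr2l, a small subunit shared by the RNA polymerases, was past the fold in opposite directions under colonization in cluster 1. It had 47.3 CPM in colonized and 76.1 CPM in germ-free Foxp3CNS1-, a log2 ratio of −0.69, and 84.3 CPM in colonized and 50.3 CPM in germ-free Foxp3GFP, a log2 ratio of 0.74. Cluster 2 had 65.8 CPM in colonized and 80.2 CPM in germ-free Foxp3CNS1-, and 76.8 and 58.9 CPM in Foxp3GFP. The other kept cells had 69.2 and 86.6 CPM in Foxp3CNS1-, and 106 and 61.4 CPM in Foxp3GFP. The opposite directions were therefore also seen outside cluster 1. The difference was not tested, since each group is 1 library.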

How the results depend on the processing

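Counts of genes past the fold moved with the settings. Against cluster 2, 0 genes were higher in cluster 1, and 1 with thinned cells, 1 with centred ratios and 4 at a fold of 1.2. The 5 lower genes became 3 at 100 UMIs per gene in every library, 2 with thinned cells, 1 with centred ratios, 0 at a fold of 2 and 87 at a fold of 1.2. Against all other kept cells, the 51 higher genes became 25 with thinned cells, 179 with centred ratios, 13 at a fold of 2 and 32 without cells with a Foxp3 UMI, and the 805 lower genes became 453, 458 and 399 under the settings of thinned cells, centred ratios and a fold of 2.

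For colonization in Foxp3CNS1-, the 82 higher genes became 31 at 200 UMIs, 54 with thinned cells and 25 at a fold of 2, and the 92 lower genes became 27, 38 and 8, and 159 with clusters 1 and 2 together. In Foxp3GFP the 82 higher genes became 36 at 200 UMIs and 32 at a fold of 2, and the 72 lower genes became 18 at 200 UMIs, 32 with thinned cells, 3 at a fold of 2 and 126 with clusters 1 and 2 together. For genotype in colonized mice, the 34 higher genes became 6 at 200 UMIs, 20 with thinned cells and 2 at a fold of 2, and the 58 lower genes became 5, 28 and 3, and 30 without cells holding a B cell, plasma cell or myeloid marker UMI. In germ-free mice the 37 higher genes became 7 at 200 UMIs, 1 at a fold of 2 and 64 with clusters 1 and 2 together, and the 50 lower genes became 7 at 200 UMIs, 20 with thinned cells, 4 at a fold of 2 and 25 without the marker cells. Higher UMI minimums and thinned cells left fewer genes measured, and why the counts moved was not tested for any setting. For genotype in colonized mice, 200 UMIs took the genes measured from 4298 to 2513. The higher genes went from 34 to 6 and the lower ones from 58 to 5.

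Of the values for single named genes, 678 kept their direction and moved by less than their interval, 11 moved by more, and Lrmp in germ-free mice turned to 0.093 with clusters 1 and 2 together. Of the list counts, 798 held and 118 moved. The settings without shared barcodes, without marker cells, at a fold of 1.2 and, against other cells, without Foxp3 cells were chosen after seeing the data. No paired analysis was possible because each group is 1 library. The germ-free Foxp3CNS1- cells held the fewest UMIs and limit what can be measured in low genes, and differences between mice cannot be measured from pooled libraries.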
